A study of Homo sapiens with 12 samples.

Results

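AQP3, KCNN4 and KCNK1 encode a water channel and potassium channels, belong to RAS84, the study's signature of RAS pathway activity, and are followed here through every probe set that the platform annotation assigns to them alone. They hold 8 of the 54675 probe sets on the array, with 3 for AQP3, 1 for KCNN4 and 4 for KCNK1. Expression was measured on 12 Affymetrix human genome arrays in 4 groups of 3. HCT116 control cells, of a human colorectal cancer cell line that carries an oncogenic RAS allele, were collected on day 3 with 25 ng/ml doxycycline or with vehicle. Hke3 and Hkh-2 are isogenic lines made from HCT116 by homologous recombination at that allele, cultured in basal condition, and each is 1 clone. Parental HCT116 in basal condition is part of the methods too, and whether the control arrays are those is not settled by methods or labels. The methods call the mutant allele deleted in the recombined lines, whereas the supplement calls it replaced by the wild-type allele. The replicates are not stated to be separate cultures, so the spread that p-values are set against may be technical only. All groups are HCT116 derivatives, and arrays of an inducible knockdown were not analysed here.

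AQP3 encodes an aquaglyceroporin, a membrane pore for water and glycerol that lies in the basolateral membrane of colon epithelium. KCNN4 encodes the intermediate-conductance potassium channel KCa3.1, which opens when calcium binds its calmodulin subunit and, in the basolateral membrane of colon cells, provides the potassium exit that drives chloride secretion. KCNK1 encodes TWIK-1, a background potassium channel of the tandem pore domain (K2P) family. Water follows salt across an epithelium, so aquaporins, potassium channels and chloride transporters are commonly considered together in colon physiology.

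The promoters of the 3 genes are shown because AQP3 and KCNN4 differed in level between HCT116 and the recombined lines while KCNK1 was not called different. Each is the 250 bases before the gene's start in RefSeq (GRCh38.p14), 5′ to 3′ on the gene's own strand, at chr9:33447594-33447843 (minus strand) for AQP3, chr19:43780974-43781223 (minus strand) for KCNN4 and chr1:233613856-233614105 (plus strand) for KCNK1. Capitals mark matches to the GC box GGGCGG and to the TATA motif TATAAA on either strand.
AQP3: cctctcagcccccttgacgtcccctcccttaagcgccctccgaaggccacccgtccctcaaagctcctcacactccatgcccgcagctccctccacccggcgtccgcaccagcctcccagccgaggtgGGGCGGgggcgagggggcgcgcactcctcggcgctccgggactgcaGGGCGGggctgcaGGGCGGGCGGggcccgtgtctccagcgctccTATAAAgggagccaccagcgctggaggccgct
KCNN4: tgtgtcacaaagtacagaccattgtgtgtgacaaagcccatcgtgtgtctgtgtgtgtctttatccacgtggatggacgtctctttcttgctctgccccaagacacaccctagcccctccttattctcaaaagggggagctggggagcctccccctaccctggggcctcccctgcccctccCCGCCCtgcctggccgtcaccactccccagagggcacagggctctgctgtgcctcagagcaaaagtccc
KCNK1: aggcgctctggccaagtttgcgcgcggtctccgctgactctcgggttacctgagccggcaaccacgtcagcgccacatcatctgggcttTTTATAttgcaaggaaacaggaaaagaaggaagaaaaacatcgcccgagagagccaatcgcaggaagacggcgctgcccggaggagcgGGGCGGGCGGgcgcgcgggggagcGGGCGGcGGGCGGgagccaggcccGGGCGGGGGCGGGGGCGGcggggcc

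The AQP3 promoter was 73.6% G and C, with 23 CpG sites, 4 GC boxes of which the 2 nearest the start overlap, and TATAAA at 32 to 27 bases before the start. The KCNN4 promoter was 60.0% G and C, with 5 CpG sites and 1 GC box, on the reverse strand. The KCNK1 promoter was 69.2% G and C, with 30 CpG sites, 7 GC boxes, some overlapping, and a reverse-strand TATAAA at 161 to 156 bases before the start. Over all 35116 promoters of the same length the median was 58.0% G and C and 11 CpG sites. GGGCGG was found in 42.6% of them and TATAAA in 10.7%. The AP-1 site TGANTCA, bound by Fos and Jun proteins, and CCGGAA, 1 form of the site bound by ETS factors, were also searched on both strands. Both factor families act downstream of RAS signalling. TGANTCA and CCGGAA were found in 6.57% and 14.5% of all promoters and in none of these 3 windows. The shorter ETS core GGAA was not searched, and it occurs in the KCNK1 window as printed. Such a match is a description of letters and not of a binding site.

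The deposited value of a probe set is a log2 signal from RMA, a method that corrects background, normalizes between arrays and combines the probes of a set. Array medians lay between 5.80 and 5.857, and the correlation over probe sets, which are not replicates, was 0.993 to 0.998 within groups. Replicate 2 of HCT116 control vehicle and replicate 3 of Hke3 stood apart from their groups, with deviations that went together across genes (r = 0.683). Of 12 colon epithelium markers, 10 had a mean of at least 6 in at least 1 group, and GPA33 and LGALS4, which mark differentiated colon cells, did not. The mean over the 12 epithelial markers lay at 9.455 to 9.503 in HCT116 control doxycycline, 9.477 to 9.508 in HCT116 control vehicle, 9.565 to 9.758 in the Hke3 and 9.903 to 9.966 in the Hkh-2 arrays. Of 16 markers of fibroblasts, endothelium and immune cells, 7 reached 6 in a group, and the mean over the 16 lay at 5.339 to 5.469, 5.283 to 5.42, 5.18 to 5.337 and 5.405 to 5.438 in the same order. The leukocyte gene PTPRC and the endothelial genes CDH5 and KDR were below 6 in every group, while the endothelial gene VWF averaged 6.33 in HCT116 control doxycycline, 6.35 in HCT116 control vehicle, 5.34 in Hke3 and 5.32 in Hkh-2. The fibroblast collagen gene COL3A1 went the other way, with 4.45, 4.49, 4.45 and 6.73 in the same order. Of the most intense epithelial markers, EPCAM was called against neither line. KRT19 was lower in HCT116 control vehicle than in both (-0.53 and -0.64). KRT18 had 0.20 against Hke3 and -0.33 against Hkh-2, both called. Larger shifts, in the same order, were those of CLDN4 (-1.52 and -2.075) and CDH1 (-0.83 and -1.17), all called. Of the 10 epithelial markers that reached 6, the Hkh-2 comparison called 6, each with HCT116 control vehicle below the line. The Hke3 comparison called 5, of which HCT116 control vehicle was below the line in 3 and above it in 2. These shares were 60% and 50%, beside 36% and 47.8% of all genes. The actin control probes, whose 5′ minus 3′ log2 difference reflects RNA integrity and labelling, also differed between groups. HCT116 arrays lay at -0.942 to -0.706 with doxycycline and at -0.855 to -0.48 with vehicle, whereas those of the lines lay at -0.575 to -0.229 (Hke3) and at -0.324 to -0.232 (Hkh-2). For GAPDH it lay between -0.033 and 0.114 over all arrays. The part of these markers and control probes in the results for AQP3 and KCNN4 was not tested.

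AQP3 was much higher in HCT116 than in both recombined lines. Its most intense probe set, 39248_at, read 10.04, 10.57 and 10.69 in HCT116 control doxycycline, 9.98, 10.48 and 10.78 in HCT116 control vehicle, 8.26, 8.33 and 8.03 in Hke3 and 7.64, 7.83 and 7.77 in Hkh-2. Every HCT116 array lay above every array of either line. In vehicle-treated HCT116 AQP3 averaged 10.41 ± 0.407, against 8.21 ± 0.156 in Hke3 and 7.75 ± 0.0971 in Hkh-2 (SD, n = 3 each). The log2 fold change of HCT116 control vehicle minus Hke3 was 2.21 (standard error 0.192, 4.62-fold, adjusted p = 1.19e-06 from limma) and that of HCT116 control vehicle minus Hkh-2 was 2.67 (standard error 0.192, 6.35-fold, adjusted p = 2.22e-07 from limma). By the size of the log2 fold change AQP3 stood at rank 137 of 12852 genes against Hke3 and at rank 76 against Hkh-2. In bulk RNA, fewer cells that express a gene and less of its RNA per cell cannot be told apart.

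Such calls are common in this experiment. At an adjusted p under 0.05, HCT116 control vehicle was higher than Hke3 in 24.6% of the 12852 genes and lower in 23.2%. Against Hkh-2, 14.3% were higher and 21.7% lower. Groups without overlap and with HCT116 on top were found in 25.5% of genes against Hke3 and 20.8% against Hkh-2. AQP3 also passed the study's threshold, a log2 fold change over 1.5, in both comparisons. It was passed against Hke3 by 0.521% of genes, against Hkh-2 by 0.63% and against both by 0.233% (30 genes). The signature was drawn in part from genes higher in HCT116 than in these lines in this experiment, so the direction of its members is not independent evidence.

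The other probe sets of AQP3 gave the same direction with smaller differences. Probe set 203747_at averaged 7.61 ± 0.214 in HCT116 control doxycycline, 7.74 ± 0.379 in HCT116 control vehicle, 6.87 ± 0.0501 in Hke3 and 6.96 ± 0.0422 in Hkh-2 (SD, n = 3 each). Its log2 fold change for HCT116 control vehicle was 0.87 against Hke3 (1.83-fold, adjusted p = 0.000666 from limma over 27344 probe sets) and 0.78 against Hkh-2 (1.72-fold, adjusted p = 0.00171). Probe set 39249_at averaged 7.54 ± 0.144 in HCT116 control doxycycline, 7.65 ± 0.267 in HCT116 control vehicle, 6.88 ± 0.105 in Hke3 and 6.92 ± 0.0309 in Hkh-2 (SD, n = 3 each), with log2 fold changes of 0.77 and 0.73 (adjusted p = 0.000262 and 0.000449 from limma). The 3 probe sets did not overlap between HCT116 and either line. Among genes, HCT116 control vehicle lay wholly above Hke3 in 25.5% and above Hkh-2 in 20.8%. Calls higher in HCT116 control vehicle made up 23.4% of all probe sets tested against Hke3 and 17% against Hkh-2. Over the 12 arrays 39248_at correlated with the others at r = 0.931 and 0.942. The size of the AQP3 difference therefore depends on the probe set. With the mean of its probe sets AQP3 had log2 fold changes of 1.28 against Hke3 and 1.39 against Hkh-2, below the study's threshold of 1.5.

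Between the lines themselves, AQP3 was 0.46 higher in Hke3 than in Hkh-2 by 39248_at, with a 95% confidence interval of 0.04 to 0.87, and this difference was not called (adjusted p = 0.0754 from limma). The arrays of both lines did not overlap, which held with Hke3 on top for 19.8% of all genes. The adjusted p fell below 0.05 when some single arrays were left out, 0.035 without HCT116 control vehicle replicate 1, 0.0476 without HCT116 control vehicle replicate 3, 0.0454 without HCT116 control doxycycline replicate 1 and 0.0498 without Hke3 replicate 3. Over all single arrays left out it was as high as 0.204. Leaving out an HCT116 array does not change the difference itself, which stayed at 0.46. The other probe sets put Hke3 at -0.09 and -0.04 relative to Hkh-2 (adjusted p = 0.696 and 0.846 from limma), and the mean of the 3 probe sets gave 0.11 (adjusted p = 0.565).

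**Figure D1:**
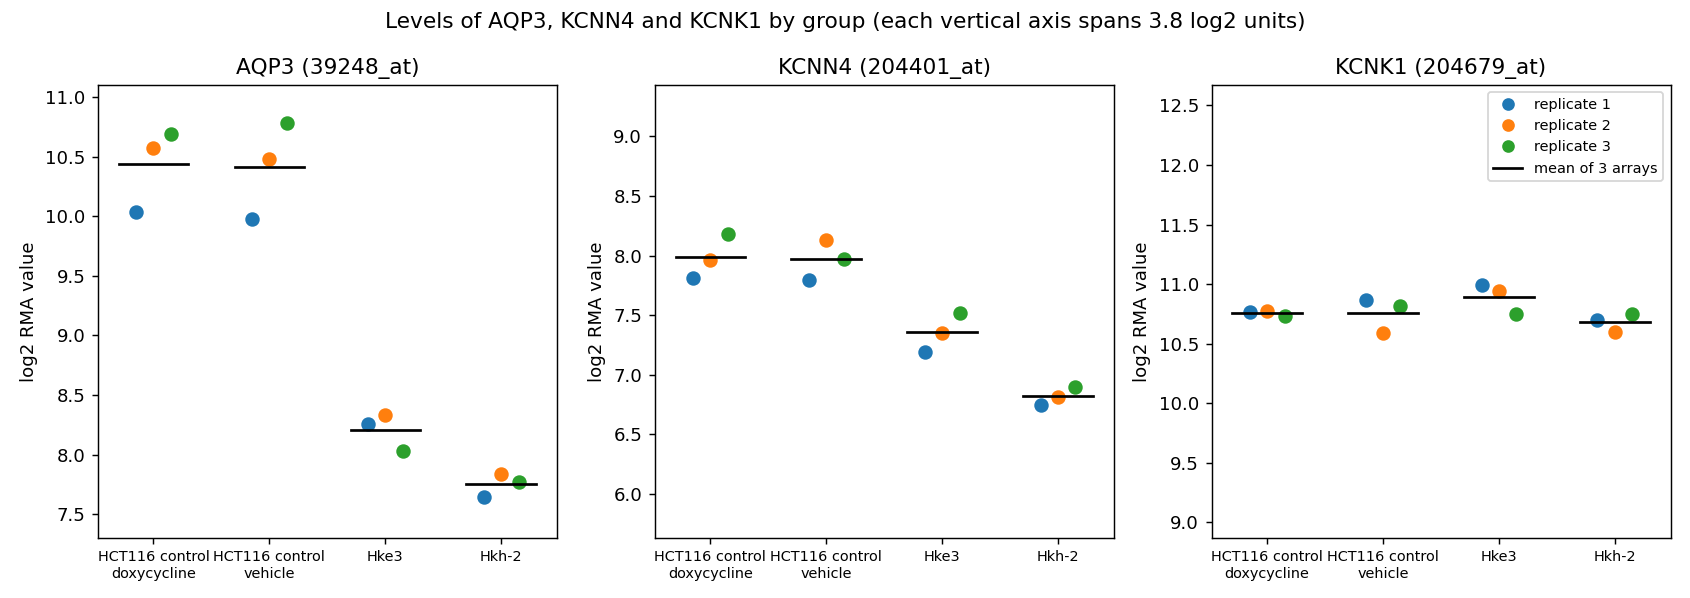
Log2 RMA values (vertical axes, 3.8 log2 units each) of the representing probe sets of AQP3, KCNN4 and KCNK1 in the 4 groups (horizontal axes). Each point is 1 array, coloured by replicate number, and each black line is the mean of 3 arrays. HCT116 arrays of AQP3 lie at 9.98 and above, Hke3 and Hkh-2 arrays at 8.33 and below, whereas all KCNK1 arrays lie between 10.59 and 10.99.

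AQP3 also varied among arrays of a group more than most genes. Its residual SD over the 12 arrays was 0.284, at percentile 97.3 of the genes kept, where the median gene had 0.124. The spread was shared between the HCT116 groups. Replicate 1 lay 0.40 below its group mean with doxycycline and 0.44 below it with vehicle, whereas replicate 3 lay 0.26 and 0.37 above it in the same order. With replicate number as a block on these 6 arrays, the residual SD of AQP3 was 0.0683, against 0.38 without the block, while the median over genes was 0.091 with and 0.115 without it.

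KCNN4 was also highest in HCT116 and lowest in Hkh-2, by smaller amounts than AQP3. Its probe set 204401_at read 7.81, 7.97 and 8.18 in HCT116 control doxycycline, 7.80, 8.13 and 7.97 in HCT116 control vehicle, 7.19, 7.35 and 7.52 in Hke3 and 6.75, 6.82 and 6.90 in Hkh-2. No array of HCT116 overlapped with Hke3, and none of Hke3 overlapped with Hkh-2. Such a gap was found in 25.5% of genes for HCT116 control vehicle above Hke3 and in 19.8% for Hke3 above Hkh-2. KCNN4 averaged 7.97 ± 0.167 in HCT116 control vehicle, 7.36 ± 0.161 in Hke3 and 6.82 ± 0.0736 in Hkh-2 (SD, n = 3 each). HCT116 control vehicle minus Hke3 gave 0.61 (standard error 0.115, 1.53-fold, adjusted p = 0.000761 from limma), and HCT116 control vehicle minus Hkh-2 gave 1.15 (standard error 0.115, 2.22-fold, adjusted p = 4.88e-06 from limma). These differences ranked 2031 and 469 of 12852 genes, and neither passed 1.5 on the log2 scale. Without the arrays that stood apart, KCNN4 had 0.61 and 1.07 and AQP3 had 2.09 and 2.63 against Hke3 and Hkh-2, all still called. Genes called higher than in both lines made up 9.04% of all genes and genes called lower than in both 12.6%.

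The lines differed from each other in KCNN4. Hke3 was 0.53 above Hkh-2 (95% confidence interval 0.29 to 0.78, 1.45-fold, adjusted p = 0.00254 from limma), while 16.3% of all genes were called higher in Hke3 and 23.5% lower. This is the test of whether both lines differ from the same HCT116 arrays by the same amount. The order of KCNN4 levels was therefore HCT116, Hke3, Hkh-2, in which both steps were called. For AQP3 the same order held in the means, but the step between the lines was not called.

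KCNK1 was not called different between HCT116 and either line. Its most intense probe set, 204679_at, read 10.77, 10.77 and 10.74 in HCT116 control doxycycline, 10.86, 10.59 and 10.81 in HCT116 control vehicle, 10.99, 10.94 and 10.75 in Hke3 and 10.70, 10.60 and 10.75 in Hkh-2. The HCT116 arrays overlapped with those of both lines. Means were 10.76 ± 0.0205, 10.76 ± 0.146, 10.89 ± 0.127 and 10.68 ± 0.0772 in the same order (SD, n = 3 each). HCT116 control vehicle minus Hke3 was -0.14 (95% confidence interval -0.33 to 0.06, adjusted p = 0.22 from limma) and HCT116 control vehicle minus Hkh-2 was 0.08 (95% confidence interval -0.12 to 0.27, adjusted p = 0.549 from limma). These intervals leave out differences as large as that of KCNN4 against either line.

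Between the lines, KCNK1 was 0.21 higher in Hke3 than in Hkh-2 (95% confidence interval 0.02 to 0.41, adjusted p = 0.0742 from limma), with the lowest Hke3 array at 10.7496 and the highest Hkh-2 array at 10.7468. This difference was called when an array that stood apart was left out, 0.29 without Hke3 replicate 3 (adjusted p = 0.0169) and 0.21 without HCT116 control vehicle replicate 2 (adjusted p = 0.0374). Over all single arrays left out the adjusted p was as high as 0.238. The second probe set in the test, 204678_s_at, whose name marks binding to several transcripts, averaged 8.86 in HCT116 control doxycycline, 8.89 in HCT116 control vehicle, 8.79 in Hke3 and 8.82 in Hkh-2. It gave 0.10 against Hke3 and 0.08 against Hkh-2 (adjusted p = 0.336 and 0.508 from limma) and -0.02 between the lines (adjusted p = 0.846). Probe set 204678_s_at did not follow 204679_at from array to array (r = -0.434 over 12 arrays). With the mean of all probe sets of KCNK1 the difference between the lines was 0.0022 (adjusted p = 0.982 from limma). That mean also takes in the probe sets near background, of which 1566465_at averaged 3.71 in Hke3 and 3.91 in Hkh-2. The remaining probe sets of KCNK1, 1566465_at and 1566464_at, lay near background with group means of 3.71 to 3.91 and 3.15 to 3.34, and were not tested. Of the 8 probe sets, 6 passed the filter on low values.

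**Figure D2:**
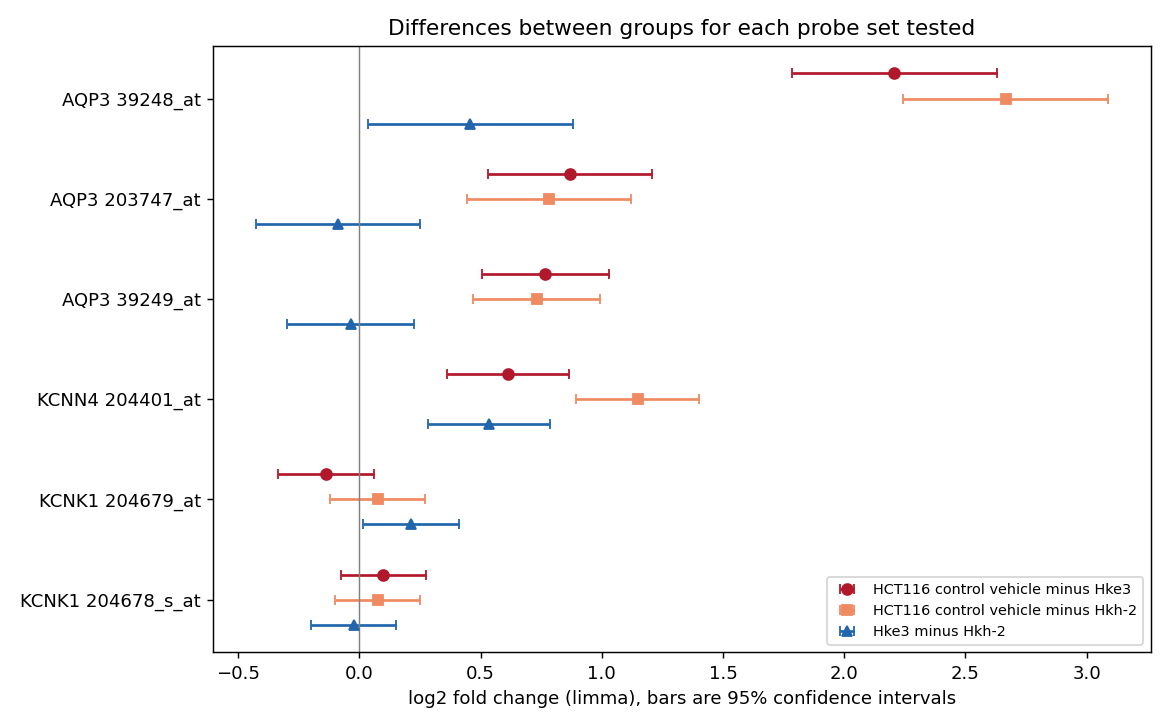
Log2 fold change (horizontal axis) with 95% confidence interval for the 6 probe sets tested (vertical axis), for HCT116 control vehicle minus Hke3 (circles), HCT116 control vehicle minus Hkh-2 (squares) and Hke3 minus Hkh-2 (triangles), from the limma fit over 27344 probe sets. The intervals of all AQP3 and KCNN4 probe sets against both lines lie above 0, with 39248_at at 2.21 and 2.67 and the other AQP3 probe sets between 0.73 and 0.87, while those of KCNK1 against both lines include 0.

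Doxycycline, which switches on the knockdown constructs used elsewhere in the study, was given to control cells here. It left no called difference in the 3 channel genes. Doxycycline minus vehicle was 0.02 for AQP3 (95% confidence interval -0.40 to 0.44), 0.02 for KCNN4 (-0.23 to 0.26) and 0.00 for KCNK1 (-0.19 to 0.20), each at an adjusted p of 1 from limma. No gene was called in this comparison (0% of 12852), and 127 genes (0.988%) had an unadjusted p under 0.05. That share is below what such a threshold takes by chance. This fit ignores replicate numbers and takes its spread from the Hke3 and Hkh-2 arrays too, and the part of either in the low share was not tested. With replicate number as a block on the vehicle and doxycycline arrays alone, the differences were the same and none of the 3 was called. The standard errors were then 0.0737 for AQP3, 0.0893 for KCNN4 and 0.0836 for KCNK1. With doxycycline-treated cells in place of vehicle-treated ones, AQP3 was 2.23 above Hke3 and 2.69 above Hkh-2, and KCNN4 was 0.63 and 1.16 above them (adjusted p = 1.11e-06, 2.08e-07, 0.000646 and 4.35e-06 from limma). Against the same lines 23.3% and 15.1% of all genes were called higher. These comparisons share the arrays of the lines with those of the vehicle group.

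The other aquaporins were low or not called. Of 14 aquaporin genes, 11 were measured by a probe set of their own and 4 of these passed the filter on low values. AQP2 and AQP6, which are renal aquaporins, had log2 fold changes of 0.18 and 0.09 against Hke3 and 0.09 and 0.14 against Hkh-2, none called. AQP3 was the only aquaporin called in either comparison, 25% of the 4, beside 47.8% and 36% of all genes. AQP1 and the colon aquaporin AQP8 were below 6 in every group.

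Among calcium- and sodium-activated potassium channels, 3 of 11 measured genes passed the filter. KCNN4 was the only one called higher in HCT116. The shares called in either direction were 33.3% against Hke3 and 66.7% against Hkh-2, beside 47.8% and 36% of all genes. KCNN1, a small-conductance relative, had 0.15 and 0.08 against Hke3 and Hkh-2 (adjusted p = 0.246 and 0.598 from limma). KCNMB4, an accessory subunit of the large-conductance channel, had -0.02 against Hke3 (adjusted p = 0.861) and lower than in Hkh-2 (-0.59, adjusted p = 7.77e-05 from limma). The pore gene of that large-conductance channel, KCNMA1, was below 6 in every group.

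Among K2P channels, the family of KCNK1, 9 of 14 measured genes passed the filter. Against Hke3, 4 were higher in HCT116 control vehicle and none lower, with KCNK5 at 0.63, KCNK7 at 0.47, KCNK16 at 0.32 and KCNK9 at 0.21. Against Hkh-2, KCNK7 (0.33) and KCNK16 (0.22) were higher and KCNK9 was lower (-0.49), whereas KCNK5 had -0.10 and was not called. The shares called were 44.4% against Hke3 and 33.3% against Hkh-2, beside 47.8% and 36% of all genes. Against Hke3, 3 rather than 4 were higher after any of 3 other normalizations or without the arrays that stood apart. With array medians subtracted or after cyclic loess, only 1 of the 9 was higher than in Hkh-2. KCNK3, an acid-sensitive channel, had 0.17 and 0.20 and was not called. Between the lines KCNK5 and KCNK9 were lower in Hke3, with log2 fold changes of -0.73 and -0.70 (adjusted p = 0.000253 and 1.76e-05 from limma). Of all genes 23.5% were called lower in Hke3, and KCNK1 was not called.

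Among 14 voltage-gated potassium channels, HCT116 control vehicle was higher than Hke3 in 5 and lower in 4. Against Hkh-2, 1 was higher and 3 lower. This made 64.3% called against Hke3, beside 47.8% of all genes, and 28.6% against Hkh-2, beside 36% of all genes. The balance against Hke3 depended on scaling, with 3 higher and 5 lower after median subtraction or cyclic loess and 3 higher and 4 lower after quantile normalization or without the arrays that stood apart. KCNH3, of the ether-a-go-go family, was higher by 1.44 and 1.30 (adjusted p = 2.01e-05 and 6.22e-05 from limma). KCNQ1, a basolateral channel of colon crypts, was -0.35 against Hke3 (adjusted p = 0.00562) and -0.03 against Hkh-2 (adjusted p = 0.806). KCNH2, which encodes hERG, was lower than in both lines (-0.60 and -0.55), as was KCNC4 (-0.71 and -1.07). KCNS3, a modulatory subunit, was lower than in Hkh-2 (-0.43) and not called against Hke3 (-0.27). Of 4 beta subunit genes, against Hke3 KCNAB2 (0.57) and KCNIP2 (0.38) were higher, and against Hkh-2 KCNIP2 (0.31) was, whereas KCNIP3 had -0.07 and -0.15. That made 50% and 25% called, beside 47.8% and 36% of all genes. Of 3 inward rectifiers, KCNJ14 was called against Hke3 (0.26), though not after any of 3 other normalizations, and KCNJ5 and KCNJ15 were not called. KCNJ14 passed the filter only through HCT116 control vehicle, where it averaged 6.03, so this call is no independent result. Its other means were 5.98 in HCT116 control doxycycline, 5.78 in Hke3 and 5.89 in Hkh-2. The shares called were 33.3% and 0%, beside 47.8% and 36% of all genes.

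Over all these families 37 of 98 measured genes passed the filter. Against Hke3, 14 of them were higher in HCT116 control vehicle and 4 lower (48.6% called, beside 47.8% of all genes). The 14 include KCNJ14, which passed the filter only through HCT116 control vehicle. Against Hkh-2, 6 were higher and 5 lower (29.7% called, beside 36% of all genes). The medians over the 37 genes were 0.17 and 0.08, beside 0.045 and -0.021 over all genes. AQP3 had the highest log2 fold change of the 37 in both comparisons, and KCNN4 ranked 5 and 3. With each array's median subtracted or after cyclic loess, 10 were higher and 5 lower against Hke3, and without the arrays that stood apart these numbers were 10 and 4.

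**Figure D3:**
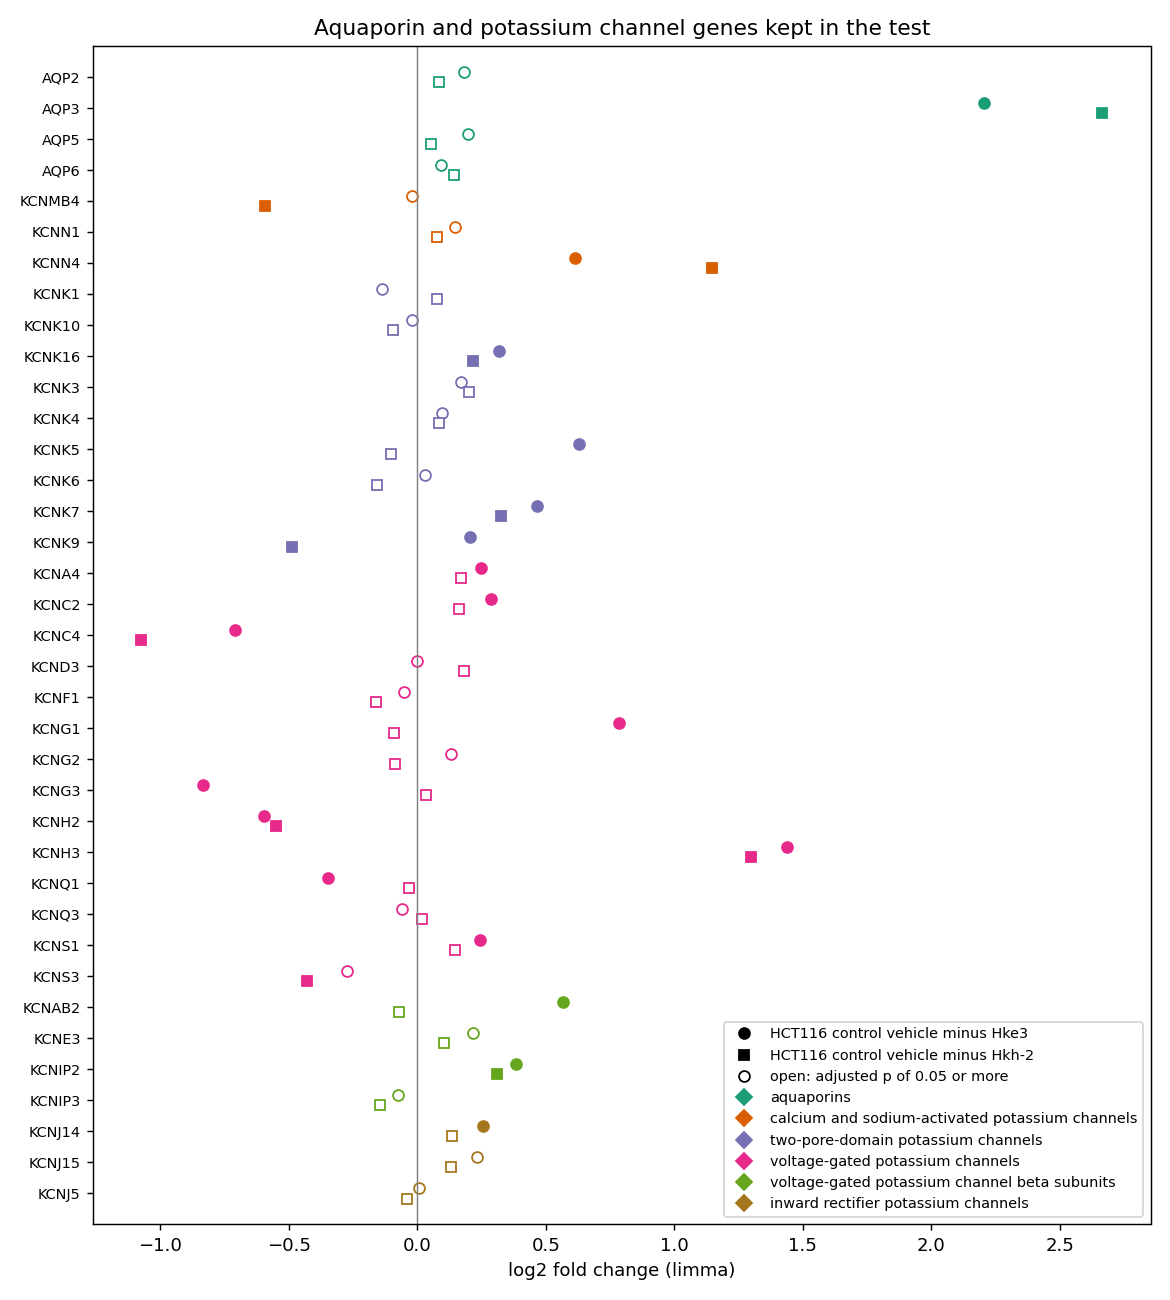
Log2 fold change (horizontal axis) of HCT116 control vehicle minus Hke3 (circles) and minus Hkh-2 (squares) for the 37 aquaporin and potassium channel genes that passed the filter (vertical axis), coloured by family. Filled symbols have an adjusted p under 0.05. AQP3 stands farthest to the right at 2.21 and 2.67, and the called genes lie on both sides of 0, with KCNC4 at -0.71 and -1.07.

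Genes around KCNN4 were called in both directions. Of 8 regulators of the channel, 4 were measured by their own probe set, and 2 were higher and 1 lower against Hke3, while 3 were lower against Hkh-2, where 47.8% and 36% of all genes were called. With array medians subtracted, 1 was higher and 2 lower against Hke3, and without the arrays that stood apart 2 were higher and 2 lower. PIK3C2B, a lipid kinase that supports channel activity, was higher than in Hke3 (0.31) and lower than in Hkh-2 (-0.34). MTMR6, a phosphatase that removes the lipid made by that kinase, was lower than in both lines (-0.63 and -0.41, adjusted p = 0.000159 and 0.00459 from limma). PHPT1, a histidine phosphatase that inhibits the channel, was lower than in Hkh-2 (-0.28) and had -0.16 against Hke3. TRIM27, a ubiquitin ligase that inhibits PIK3C2B, was higher than in Hke3 (0.30) and had -0.08 against Hkh-2. Of 14 genes of store-operated and inositol trisphosphate-gated calcium entry, 5 were higher and 2 lower against Hke3, and the numbers for Hkh-2 were 3 and 3. The shares called were 50% and 42.9%, beside 47.8% and 36% of all genes. After quantile normalization 1 rather than 2 was lower against Hke3. The calcium release channel ITPR3 was higher than in Hke3 (0.42), the calcium pump gene ATP2B1 was lower than in Hke3 (-0.32), neither was called against Hkh-2, and ATP2A2 (0.09 and 0.13) was called against neither. ITPR1 (0.71 and 0.47), ATP2B4 (0.77 and 0.55) and STIM2 (0.41 and 0.25), named after their values were seen, were higher than in both lines, and ITPR2 was lower than in both (-0.65 and -0.99).

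Chloride, sodium and proton transport genes of epithelia were called about as often as other genes against Hke3. Of 13 that passed the filter, 3 were higher and 3 lower against Hke3. For Hkh-2 the numbers were 5 higher and 4 lower, with 2 in place of 4 lower after cyclic loess or quantile normalization. The shares called were 46.2% and 69.2%, beside 47.8% and 36% of all genes. ATP1B1, a subunit of the sodium pump, was lower than in both lines (-1.59 and -2.05, adjusted p = 2.1e-08 and 1.67e-09 from limma). The scaffold gene NHERF1 was lower than in both (-0.36 and -0.33), and ATP1B3 was called against neither (0.01 and -0.18). ANO1, a calcium-activated chloride channel gene, was higher than in both (1.61 and 2.05, adjusted p = 4.66e-08 and 4.35e-09 from limma). SLC12A2, the chloride uptake cotransporter of secretory cells, was higher than in both (0.33 and 0.64), as was FXYD3 (1.45 and 0.47). SCNN1A was higher than in Hkh-2 (2.455) and not called against Hke3 (0.28). These genes were named after their values were seen. In all, 3 of the 13 were higher than both lines and 2 lower than both, beside 9.04% and 12.6% of all genes. Of the 5 LRRC8 genes of the volume-regulated anion channel, 2 were lower against Hke3 and 1 against Hkh-2, shares of 40% and 20% beside 47.8% and 36% of all genes called. After quantile normalization none was lower against Hkh-2, and without the arrays that stood apart 1 rather than 2 was lower against Hke3, while for Hkh-2 there was 1 in each direction. LRRC8D (-0.32) and LRRC8C (-0.29) were lower than in Hke3 and LRRC8E (-0.37) was lower than in Hkh-2, while LRRC8A (0.11 and -0.08) and LRRC8B (-0.08 and -0.16) were not called.

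Within RAS84, AQP3 was at the upper end and KCNK1 in the middle. Of its 84 genes, 79 were measured by their own probe set and 75 passed the filter. Against Hke3, 27 were higher and 26 lower in HCT116 control vehicle, and against Hkh-2, 24 were higher and 23 lower. That is 70.7% and 62.7% called, beside 47.8% and 36% of all genes, for a list chosen in part on these arrays. Ordered from the highest log2 fold change, AQP3 was number 1 against Hke3 and number 3 against Hkh-2, KCNN4 was 13 and 9, and KCNK1 was 45 and 34. Of the 75 genes, 15 were higher than both lines, AQP3 and KCNN4 among them, and 18 were lower than both. Over all genes 9.04% were higher and 12.6% lower than both. AQP3 and ITPRID2 (1.80 and 1.98) were the members past 1.5 against both lines, beside 0.233% of all genes. The genes of the signature with the highest levels, SFN, S100A6 and IER3, averaged 13.71, 13.30 and 12.59 in HCT116 control vehicle, against 14.02, 13.53 and 13.24 in Hke3 and 14.07, 13.14 and 11.96 in Hkh-2.

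The genes whose pattern was most like that of each channel gene were taken by Pearson's r over the 12 arrays, which the 4 group levels dominate. Candidates had at least 0.5 times the channel gene's range of group means, with no upper bound. For AQP3 they were AHNAK2 (r = 0.988), ZBED2 (r = 0.987) and ANO1 (r = 0.987), of 670 candidates. ANO1 averaged 9.50 in HCT116 control doxycycline, 9.53 in HCT116 control vehicle, 7.92 in Hke3 and 7.48 in Hkh-2, and its step between the lines of 0.44 was called (adjusted p = 0.0036 from limma). For KCNN4 they were S100A10, an annexin partner (r = 0.979), PNMA1 (r = 0.973) and CYP26A1, which degrades retinoic acid (r = 0.972), of 3669 candidates. CYP26A1 averaged 7.30 in HCT116 control doxycycline, 7.30 in HCT116 control vehicle, 6.66 in Hke3 and 6.03 in Hkh-2. For KCNK1, whose group means differed little, they were HACE1 (r = 0.968), C9orf72 (r = 0.956) and DGUOK (r = 0.954), of 12136 candidates. HACE1, a ubiquitin ligase gene, averaged 7.57 in HCT116 control doxycycline, 7.58 in HCT116 control vehicle, 7.92 in Hke3 and 7.50 in Hkh-2. It read 7.87, 7.11 and 7.75 in the HCT116 control vehicle arrays and 8.08, 8.04 and 7.64 in the Hke3 arrays, so that it was lowest in the arrays that stood apart from their groups. KCNK1 was lowest in the same arrays, and the part of those arrays in this likeness was not tested. AQP3 and KCNN4 correlated at r = 0.94 over the 12 arrays and at r = 0.507 after group means were removed, whereas KCNK1 had r = -0.0475 with AQP3 and 0.0119 with KCNN4.

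**Figure D4:**
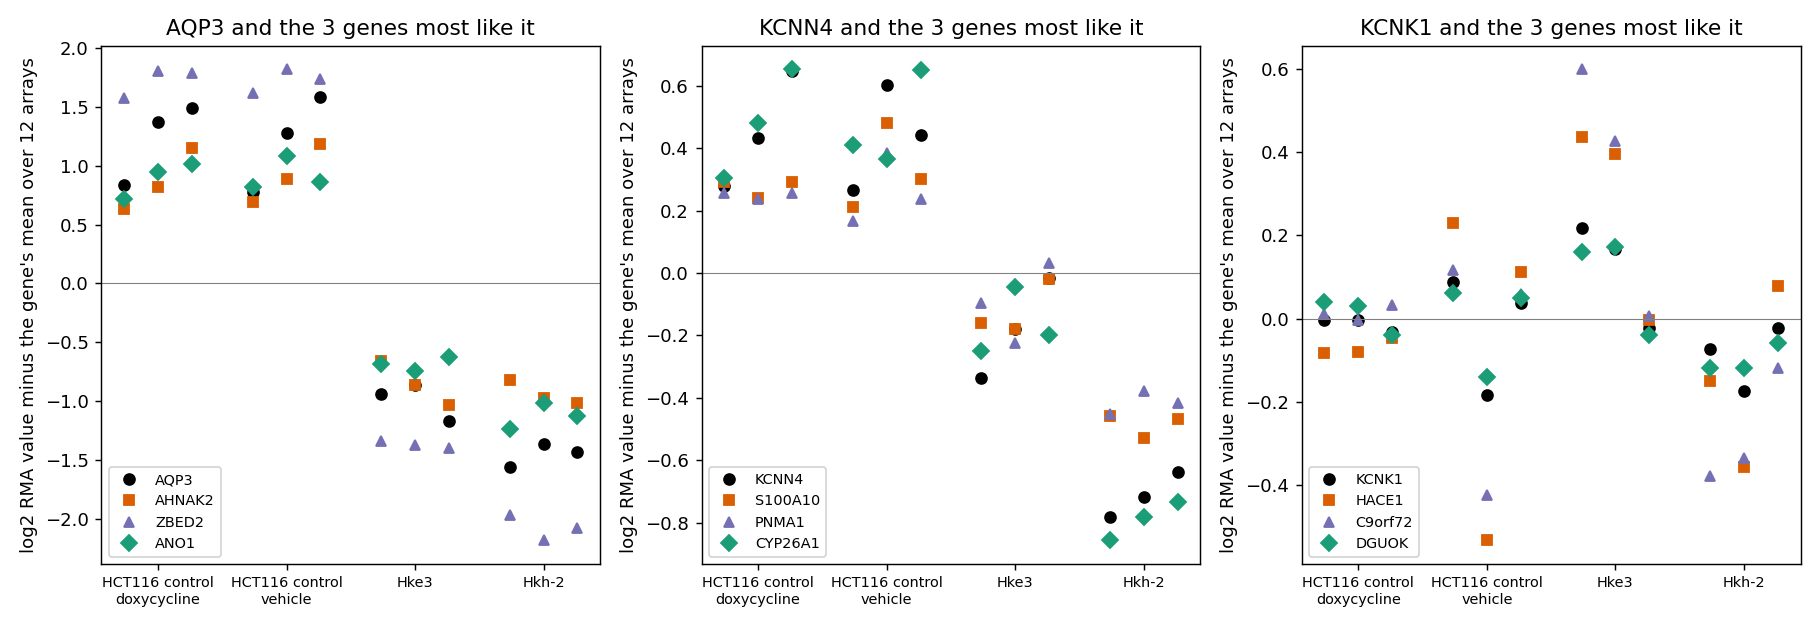
Log2 RMA value of each array minus the gene's mean over the 12 arrays (vertical axes) for AQP3, KCNN4 and KCNK1 (black circles) and the 3 genes most like each, by group (horizontal axes). Each point is 1 array, with replicates 1 to 3 from left to right in a group. AQP3 and its neighbours lie above 0 in HCT116 arrays and below 0 in Hke3 and Hkh-2 arrays, and KCNK1 and its neighbours are low in HCT116 control vehicle replicate 2, which stood apart from its group.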

How the data were processed

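Expression of AQP3, KCNN4 and KCNK1 was analysed in HCT116 control cells with doxycycline or vehicle, Hke3 and Hkh-2, with 3 arrays each. The deposited values are log2 signals that the authors made with RMA, as the submitters' processing notes name it. Its version and the set of arrays it normalized are not given in the sources used here. Groups and replicate numbers came from the labels. The recombined gene itself is left out of the results.

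Of 54675 probe sets, 41097 name 1 gene, 1801 several and 11777 none here, and 41043 were matched to RefSeq (GRCh38.p14) for current symbols. The most intense probe set stood for a gene, which was kept if a group mean reached 6, after the filter of the study's cell line comparison. One model of 4 group means over the 12 arrays was fitted in limma (version 3.58.1, under R 4.3.3), with Benjamini-Hochberg adjustment over 12852 of 19775 genes, or over 27344 probe sets. The step was tested on simulated data. Adjusted p under 0.05 was called. The number of arrays limits precision, and an exact two-sided test of 3 against 3 cannot go below 0.1.

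The channel genes and gene lists were chosen with earlier results of these data known. Named genes are the 3 channel genes, the 3 genes of each list with the highest mean over the arrays, every called gene where 5 or fewer were called, and the 3 genes most like each channel gene among those with at least 0.5 times its range of group means. Not every gene that this rule takes is named, and marker genes, low genes and others named outside it were chosen after their values were seen. Same-numbered vehicle and doxycycline arrays deviated together across genes (r = 0.228, 0.212 and 0.453, against -0.271 to 0.0448 for other pairs). In the other 5 pairs of groups at least 1 same-numbered pair of arrays was at or under 0.1, with a lowest r of -0.58 to 0.0762. Replicate numbers were therefore taken to pair vehicle and doxycycline only, by a bound that is a choice. For doxycycline and Hkh-2, same-numbered arrays had r of 0.0762 to 0.134, above all other pairs (-0.088 to -0.0252). Alternatives changed how probe sets were combined, the filter, the normalization (3 others), the fit and its prior, the replicate block and the control arrays, or left out arrays. Counts over channel genes under other normalizations or without the arrays that stood apart were added after seeing the data.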

Additional observations from a re-analysis of the deposited data

Results flagged for a closer look

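KCNN4 differed between Hke3 and Hkh-2, lines that are said to carry the same change of allele, by 0.53 on the log2 scale (adjusted p = 0.00254 from limma), a test of whether both lines differ from HCT116 by the same amount. All 3 Hke3 arrays lay above all 3 Hkh-2 arrays, as for 19.8% of all genes. Between the lines 16.3% of all genes were called higher in Hke3 and 23.5% lower. Each line is 1 clone, so clone and allele cannot be told apart.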

How the results depend on the processing

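Across up to 26 alternatives AQP3 and KCNN4 stayed called and higher in HCT116 than in both lines. The log2 fold changes of AQP3 lay at 1.28 to 2.43 against Hke3 and 1.39 to 2.88 against Hkh-2, lowest with the mean of probe sets, and those of KCNN4 at 0.53 to 0.70 and 1.07 to 1.23. KCNN4 between the lines stayed called at 0.454 to 0.615. It was not kept with a filter of 8. No count of all genes called moved by over 1.5 times. AQP3 for Hke3 minus Hkh-2 was called with the compared groups alone (0.458, adjusted p = 0.00842 from limma), with the replicate block on all arrays (0.458, adjusted p = 0.045) and without both arrays that stood apart (0.546, adjusted p = 0.05 after rounding up). With single arrays left out it lay at 0.396 to 0.546, with an adjusted p of up to 0.204, and the mean of probe sets gave 0.111 (adjusted p = 0.565). KCNK1 for Hke3 minus Hkh-2 was called with cyclic loess (0.259, adjusted p = 0.0309) and without both arrays (0.285, adjusted p = 0.00234). With single arrays left out it lay at 0.165 to 0.285, with an adjusted p of up to 0.238. The mean of probe sets, which for KCNK1 takes in those near background, gave 0.00223 (adjusted p = 0.982). For doxycycline minus Hke3, KCNK1 was called without both arrays (-0.205, adjusted p = 0.0148). The mean of probe sets turned the sign of KCNK1 against Hkh-2 for vehicle (-0.0347) and for doxycycline (-0.00954), and of AQP3 for doxycycline minus vehicle (-0.0734). For KCNK1 against Hkh-2, the tested probe sets 204679_at and 204678_s_at both gave 0.08 for vehicle, and 0.08 and 0.04 for doxycycline. With single arrays left out, doxycycline minus vehicle ran over 0, from -0.198 to 0.220 for AQP3, -0.0801 to 0.103 for KCNN4 and -0.0788 to 0.0583 for KCNK1, which had -0.00529 with cyclic loess and -0.0788 without both arrays. Among single probe sets it ran from -0.340 to 0.0180 for 203747_at and -0.0775 to 0.00684 for 204678_s_at, which without both arrays had 0.0180 and 4.90e-05. Between the lines 204678_s_at ran from -0.0589 to 0.0358, with 0.0251 under cyclic loess, which gave 0.00948 for 39249_at. None of these sign changes was called, and causes were not tested. With the replicate block on vehicle and doxycycline arrays alone, AQP3 had 0.0206 (standard error 0.0737, adjusted p = 1), and the block changed no other call. Low signal limits the probe sets of KCNK1 below 6.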
